A study of Mus musculus with 8 samples.

Results

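The genes described are 6 for natural killer (NK) cell receptors (Ncr1, Klrb1c, Klre1, Klrc1, Klra8 and Klrd1) and 4 for proteins of cytotoxic granules (Prf1, Gzma, Gzmb and Nkg7), 10 of the 24453 genes in the deposited table. They were selected by their gene symbols, and all 10 passed the low-value filter. RNA came from mouse T cells that flow cytometry had selected for CD4 and Foxp3, the marks of regulatory T cells (Treg cells). The libraries fell into 3 from line T143, 2 from line T138 and 3 from wild-type (WT) mice, and the study asked whether the lines stand for distinct kinds of Treg cell. Both lines were derived by nuclear transfer from a T cell nucleus, so each represents 1 receptor specificity, and the series text presents T143 as a case of agonist-induced and T138 as a case of naturally occurring development. All 8 libraries carry the same label, NOD-Foxp3GFP-Rag1-/-, the WT ones included. It names the NOD strain, a Foxp3 reporter and loss of Rag1, a gene that T and B cells need to rearrange their receptors and that NK and myeloid cells do not need in order to form. The WT libraries also come from sorted T cells, so the Rag1 label is doubtful for the WT mice, and their genotype could not be checked. If the WT mice have Rag1, its genotype and line cannot be told apart in any comparison with WT. No treatment was given, per the labels. Ages are not given in the sources used here.

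T143 replicate 1 has a source name that points to a T138 mouse, and WT replicate 1 one that points to a T143 mouse; their titles and model labels gave the groups used, and results are also given without both. The animals behind the replicates are not described further, so p-values measure the spread between libraries, which may be partly technical. Depth was 7.83 to 22.64 M reads per library, at which 3 reads, the limit that a count of 0 allows, equal 2.07 to 5.97 normalised reads. In bulk RNA, fewer cells of a type and less RNA per cell cannot be told apart.

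NK cells kill without a rearranged receptor. They weigh signals from activating receptors, such as the product of Ncr1 (NKp46), against inhibitory ones that read MHC class I molecules. Most of these receptors in mice are C-type lectin-like proteins encoded side by side in the NK gene complex on chromosome 6. In killing, a granule that holds perforin and granzymes fuses with the membrane facing the target cell. Perforin opens the way and the granzymes cleave proteins inside the target. Some activated Treg cells are known to carry granzymes as well.

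The 5 lectin-like members lay within 1.35 Mb of chromosome 6, from 128778485 to 130129898 (GRCm38). Ncr1 and Nkg7 are both on chromosome 7, at 4337715 to 4345184 and 43437138 to 43438246. Prf1 is on chromosome 10 (61297751 to 61304684), Gzma on chromosome 13 (113093824 to 113100981) and Gzmb on chromosome 14 (56258836 to 56262334).

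Promoters are shown for Ncr1 and the 4 effector genes, whose levels carry the differences described further on. Each stretch is the 250 bases before the start listed for its promoter (GRCm38.p6), 5′ to 3′ on the transcribed strand. That start is not always the outer end of the gene. The capitals mark TGTGGT or its complement, the core read by Runx factors of T and NK cells.
Ncr1, chr7:4337465-4337714, plus strand: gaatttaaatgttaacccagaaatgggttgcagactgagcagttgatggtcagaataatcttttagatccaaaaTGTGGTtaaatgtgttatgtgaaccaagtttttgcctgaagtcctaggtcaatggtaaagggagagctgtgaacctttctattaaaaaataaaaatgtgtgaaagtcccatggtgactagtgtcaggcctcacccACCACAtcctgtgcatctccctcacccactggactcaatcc
Prf1, chr10:61297586-61297835, plus strand: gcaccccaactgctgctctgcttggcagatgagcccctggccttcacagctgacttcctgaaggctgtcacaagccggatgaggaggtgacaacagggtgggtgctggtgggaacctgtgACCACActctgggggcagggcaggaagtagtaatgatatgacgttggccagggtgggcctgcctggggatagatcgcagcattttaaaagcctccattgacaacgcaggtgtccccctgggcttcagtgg
Gzma, chr13:113100982-113101231, minus strand: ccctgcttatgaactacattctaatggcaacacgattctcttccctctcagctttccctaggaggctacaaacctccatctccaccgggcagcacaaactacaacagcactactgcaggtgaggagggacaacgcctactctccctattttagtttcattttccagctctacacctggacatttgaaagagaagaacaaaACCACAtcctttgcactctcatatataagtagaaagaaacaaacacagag
Gzmb, chr14:56262335-56262584, minus strand: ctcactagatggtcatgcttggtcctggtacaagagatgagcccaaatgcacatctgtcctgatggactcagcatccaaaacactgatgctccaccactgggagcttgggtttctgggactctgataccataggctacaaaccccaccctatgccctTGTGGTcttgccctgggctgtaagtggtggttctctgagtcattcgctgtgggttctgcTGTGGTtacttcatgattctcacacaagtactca
Nkg7, chr7:43436888-43437137, plus strand: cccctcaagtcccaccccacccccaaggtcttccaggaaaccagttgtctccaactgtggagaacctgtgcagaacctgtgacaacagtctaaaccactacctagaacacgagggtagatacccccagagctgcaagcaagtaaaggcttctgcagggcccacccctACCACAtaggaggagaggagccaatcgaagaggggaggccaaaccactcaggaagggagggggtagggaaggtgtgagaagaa
The matches began 176 and 41 bases before the start in Ncr1, 130 bases before it in Prf1, 50 in Gzma, 93 and 34 in Gzmb, and 83 in Nkg7. Of the 9 members with a promoter in the table, 8 held TGTGGT on either strand (all but Klra8), while 14.0% of 32851 promoters of the same length held it. AGGTGT, a T-box core, was in Prf1, Gzma and Nkg7, 3 of the 9, against 11.8% of promoters. AGGAAG, an Ets core, was in 3 of the 9 (Klrb1c, Prf1 and Nkg7), against 29.5%. TTCNNNGAA, the spaced Stat motif, was in Nkg7 alone, 1 of the 9, against 7.02%. In the members no match overlapped one of another motif, while 2 Ets matches in Klrb1c, beginning 105 and 101 bases before the start, shared 2 bases. No test was made of these matches. Ncr1, Klre1 and Klra8 have 2 starts in the table, of which the first listed was used. For Prf1, Klre1 and Klrc1 the listed start lies inside the annotated span of the gene. The Prf1 stretch thus falls partly within the gene, and those of Klre1 and Klrc1 wholly. All are included in the counts above.

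Per kilobase of transcript, Nkg7 stood first in T143 at 939 ± 281 normalised reads per kb, and Gzmb first in T138 at 471 ± 12.2 (SD, n = 3 and 2). In T143 Gzmb (689 ± 803) and Gzma (335 ± 178) followed, and these 3 levels overlapped in sequence. Prf1 (179.6 ± 16.0), Ncr1 (113 ± 71.3) and Klrd1 (102.5 ± 25.4) came next and overlapped too, above the other 4 receptors at 7.15 to 27.2. In T138 the order was Gzmb, Klrd1 (413 ± 41.7), Nkg7 (253 ± 9.70), Gzma (129.8 ± 24.1) and Ncr1 (107 ± 7.09), with no overlap between neighbours. Prf1 averaged 31.4 ± 7.85 per kb in T138. In WT Nkg7 again stood first (313 ± 129, n = 3), clear of Gzmb (68.1 ± 35.8) and Prf1 (44.1 ± 8.37), which overlapped. Every other member averaged under 10 per kb in WT. Ranked among 23878 genes per kb, Ncr1 lay above 67.1% of genes in T143, 67.1% in T138 and 37.4% in WT.

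Receptor genes were near 0 in WT and present in both lines. Ncr1, which encodes the activating receptor NKp46 of NK cells and related innate lymphocytes, had 75.6, 280.0 and 141 normalised reads in T143, against 149.6 and 164 in T138 and 0, 1.06 and 0 in WT. All 5 line libraries were far above every WT library, and the 2 T138 values lay inside the range of T143. In WT this rested on 1 read in all, so the ratio of depth-scaled reads to WT was 658 for T143 (95% exact counting interval 117 to 26050) and 584 for T138 (104 to 23120). The log2 change was 6.83 ± 0.71 (SE) for T143 against WT (limma, adjusted p = 0.000184) and 6.95 ± 0.80 for T138 against WT (adjusted p = 0.000615). T143 differed from T138 by -0.12 ± 0.80, which did not pass (adjusted p = 0.929).

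Klrd1 encodes CD94, the partner chain that carries NKG2 receptors to the surface. It had 65.7, 101.8 and 108 normalised reads in T143, against 396 and 343 in T138 and 0, 8.52 and 8.36 in the WT libraries. The 3 groups did not overlap, and T138 was the highest. Klrd1 rose in T143 over WT (log2 change 4.34 ± 0.84, limma adjusted p = 0.00452) and in T138 over WT (6.37 ± 0.94, adjusted p = 0.00215). T143 was at -2.03 ± 0.94 relative to T138, which did not pass (adjusted p = 0.15). That call depended on the processing: the change stayed between -2.36 and -1.80 in 20 alternatives and passed as lower in 6 of them, with adjusted p from 0.0111 to 0.338.

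Klrc1 encodes NKG2A, the inhibitory chain that pairs with CD94. It had 9.95, 16.5 and 16.1 normalised reads in T143 (5, 13 and 13 reads), against 20.7 and 0 in T138, and 0, 0 and 2.28 in the WT libraries. The T143 values lay above the WT values, while 1 T138 library held none. T143 against WT gave a read ratio of 18.3 (95% exact counting interval 5.70 to 93.4) and a log2 change of 3.32 ± 1.14 that missed the threshold (limma, adjusted p = 0.0586). It passed without T138 replicate 1 (adjusted p = 0.0202), without T138 replicate 2 (0.0193), and in 2 further alternatives, within a range of 0.0193 to 0.183 over 20. T138 against WT was at 1.65 ± 1.28 (adjusted p = 0.475), and T143 against T138 at 1.67 ± 1.28 (adjusted p = 0.38). Of the 50-base windows of its transcript, 40.3% are identical to a stretch of Klrc2 or Klrc3, so reads could be split between these genes.

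Klra8 encodes Ly49H, an activating receptor of the Ly49 family. It had 13.9, 34.4 and 18.6 normalised reads in T143, against 35.4 and 17.8 in T138, and none in any WT library. The lines overlapped each other. Against the limit of 3 reads per WT library, Klra8 was at least 8.87-fold higher in T143 and at least 10.6-fold higher in T138. The fitted changes passed for T143 against WT (limma, adjusted p = 0.00293) and for T138 against WT (adjusted p = 0.00727), the second not when those groups alone were fitted (adjusted p = 0.05, in a range of 0.00025 to 0.05 over 20 alternatives). T143 against T138 was at -0.26 ± 0.88 (adjusted p = 0.847). Klra8 and Klra21 have the same reads in every library, and 33.1% of its windows match other Ly49 genes. NOD mice also carry a different set of Ly49 genes from the reference strain, so these reads stand for Ly49 transcripts and are uncertain for Klra8 itself.

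Klrb1c encodes NK1.1 in some strains and belongs to the NKR-P1 family. It had 17.9, 56.0 and 33.4 normalised reads in T143, against 34.5 and 60.1 in T138, and 0, 13.8 and 6.84 in WT. Both lines lay above WT without overlap and overlapped each other. The changes were 2.77 ± 1.03 for T143 against WT (limma, adjusted p = 0.0755) and 3.25 ± 1.15 for T138 against WT (adjusted p = 0.103), and neither passed. Without WT replicate 2 the first passed (3.57, adjusted p = 0.0431, in a range of 0.0431 to 0.231 over 20 alternatives). T143 against T138 was at -0.48 ± 1.15 (adjusted p = 0.79). Of its windows, 18.1% match another Klrb1 gene or Gm44511.

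Klre1 encodes a lectin-like chain that pairs with the products of Klri1 and Klri2. It had 19.9, 58.5 and 27.2 normalised reads in T143, against 0 and 101.6 in T138, and 7.58, 0 and 8.36 in WT. T143 lay above WT, while the T138 libraries stood at opposite ends of the whole range. No comparison passed, with changes of 2.92 ± 1.56 for T143 against WT (limma, adjusted p = 0.205), 1.23 ± 1.74 for T138 against WT (adjusted p = 0.723) and 1.69 ± 1.74 for T143 against T138 (adjusted p = 0.523).

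**Figure D1:**
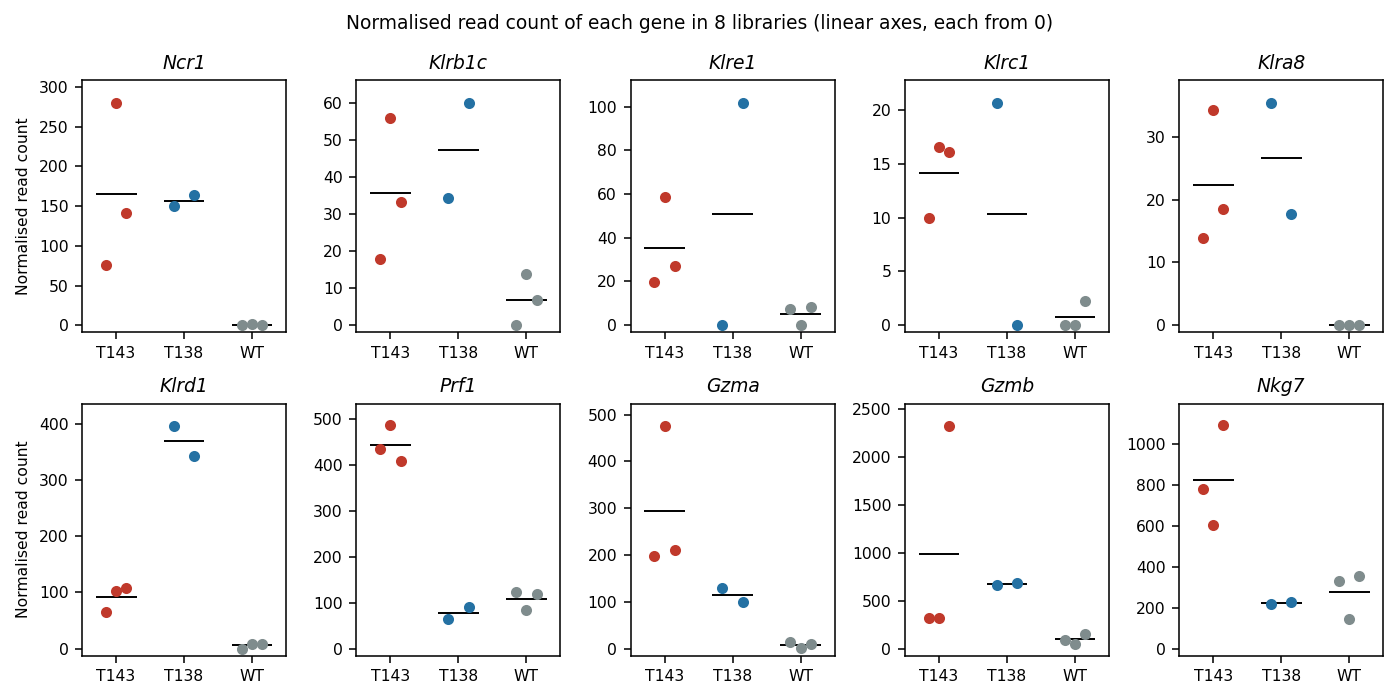
Normalised read count of each of the 10 genes (vertical axes, linear, from 0) in T143 (3 libraries), T138 (2) and WT (3), with 1 point per library and a line at the group mean. Ncr1 lies between 75.6 and 280.0 in T143 and is at most 1.06 in WT, Klrd1 is highest in T138, and Prf1 and Nkg7 are highest in T143.

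Among the effector genes, Prf1 and Nkg7 set T143 apart from both other groups, whereas Gzma and Gzmb were higher in both lines than in WT. Prf1 encodes perforin, the pore-forming protein of the granule. It had 436, 487 and 410 normalised reads in T143 (444 ± 39.6, SD, n = 3), against 64.0 and 91.4 in T138 (77.7 ± 19.4, n = 2) and 123, 85.2 and 119 in WT (109 ± 20.7, n = 3). Every T143 library was above every other library, and T138 and WT overlapped. Prf1 rose in T143 over T138 (log2 change 2.52 ± 0.33, limma adjusted p = 0.000866) and over WT (2.03 ± 0.30, adjusted p = 0.00117). T138 against WT was at -0.49 ± 0.33 and did not pass (adjusted p = 0.411). Both calls held in all 20 alternatives.

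Nkg7 encodes a granule membrane protein needed for granule release. It had 782, 606 and 1094 normalised reads in T143 (827 ± 247, n = 3), against 217 and 229 in T138 (223 ± 8.54, n = 2), and 329, 145 and 353 in WT (276 ± 114, n = 3). T143 again lay above all other libraries, and the T138 values fell inside the WT range. Nkg7 rose in T143 over T138 (1.85 ± 0.39, limma adjusted p = 0.00821) and over WT (1.64 ± 0.35, adjusted p = 0.00684). The first call was lost without T138 replicate 1 (adjusted p = 0.0507) or T138 replicate 2 (0.0558), with the change between 1.62 and 2.05 and adjusted p between 4.43e-05 and 0.0558 in 20 alternatives. T138 against WT was at -0.20 ± 0.39 (adjusted p = 0.803).

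Gzma encodes granzyme A, a protease that cleaves after basic residues. It had 197, 475 and 210.4 normalised reads in T143 (294 ± 157, n = 3), against 129 and 99.1 in T138 (114 ± 21.1, n = 2), and 13.1, 2.13 and 9.88 in WT (8.37 ± 5.64, n = 3). The 3 groups did not overlap, in the order T143, T138 and WT from the highest. Gzma rose in T143 over WT (5.11 ± 0.65, limma adjusted p = 0.000536) and in T138 over WT (3.86 ± 0.73, adjusted p = 0.0074). The second call was lost without T138 replicate 1 (3.68, adjusted p = 0.0545), the highest adjusted p among 20 alternatives, whose lowest was 1.77e-07. T143 against T138 was at 1.25 ± 0.73 and did not pass (adjusted p = 0.247).

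Gzmb encodes granzyme B, the granzyme that triggers caspases. It had 324, 323 and 2322 normalised reads in T143 (989.8 ± 1154, n = 3), against 664 and 689 in T138 (677 ± 17.6, n = 2), and 87.5, 52.2 and 154 in WT (97.7 ± 51.4, n = 3). T143 replicate 3 stood far above all other libraries, and the T138 values lay between it and the other T143 libraries. Gzmb rose in T143 over WT (2.80 ± 0.71, limma adjusted p = 0.0195), also without T143 replicate 3 (1.85, adjusted p = 0.012), but not without WT replicate 2 (2.42, adjusted p = 0.0679). Its rise in T138 over WT (2.91 ± 0.79, adjusted p = 0.0452) lay at the threshold. It was lost without T138 replicate 1 (0.136), T138 replicate 2 (0.158), WT replicate 1 (0.0893), WT replicate 2 (0.113) or WT replicate 3 (0.0514), and passed in 11 of 20 alternatives. T143 against T138 was at -0.11 ± 0.79 (adjusted p = 0.933).

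Counted together, 2 of the 10 members were called higher in T143 than in T138 (Prf1 and Nkg7), where 21.0% of the 15547 tested genes were called, 10.8% as higher and 10.2% as lower. None was called lower by limma, none had an unadjusted p under 0.05 in that direction, and DESeq2 and limma-voom each called 1, Klrd1. For T138 against WT, 5 of 10 were called higher (Ncr1, Klra8, Klrd1, Gzma and Gzmb) and 0 lower, beside 11.0% of all genes called, 5.74% higher and 5.30% lower. For T143 against WT, 7 of 10 were called higher, those 5 with Prf1 and Nkg7, and 0 lower, beside 23.8% called, 11.7% higher and 12.1% lower. Both counts of 0 also held at an unadjusted p under 0.05 and in edgeR and DESeq2. The 2 comparisons with WT share the WT libraries and are not independent. Without both libraries of doubtful source name the higher calls numbered 2, 4 and 7 in the order given, with Gzmb lost for T138 against WT, and Klrd1 was called lower in T143 than in T138.

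Split by role, the receptors had 3 of 6 higher calls for T143 against WT, 3 of 6 for T138 against WT and 0 of 6 for T143 against T138. The effectors had 4 of 4, 2 of 4 and 2 of 4. The median log2 change of the 10 members was 0.57 for T143 against T138 (0.15 over all tested genes), 3.08 for T138 against WT (-0.06 over all) and 3.12 for T143 against WT (0.05 over all), the last 3.04 with Klra8 at its bound. All 10 members lay above WT without overlap in T143, where 20.0% of all tested genes did, and 6 of 10 in T138, where 17.7% did. None lay below WT without overlap in T143 (20.7% of all tested genes) or in T138 (19.8%). Between the lines 3 members lay higher in T143 without overlap (28.0% of all tested genes) and 1 lower, Klrd1 (23.7%). Klrb1c, Klre1 and Klrc1 were called in no comparison.

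**Figure D2:**
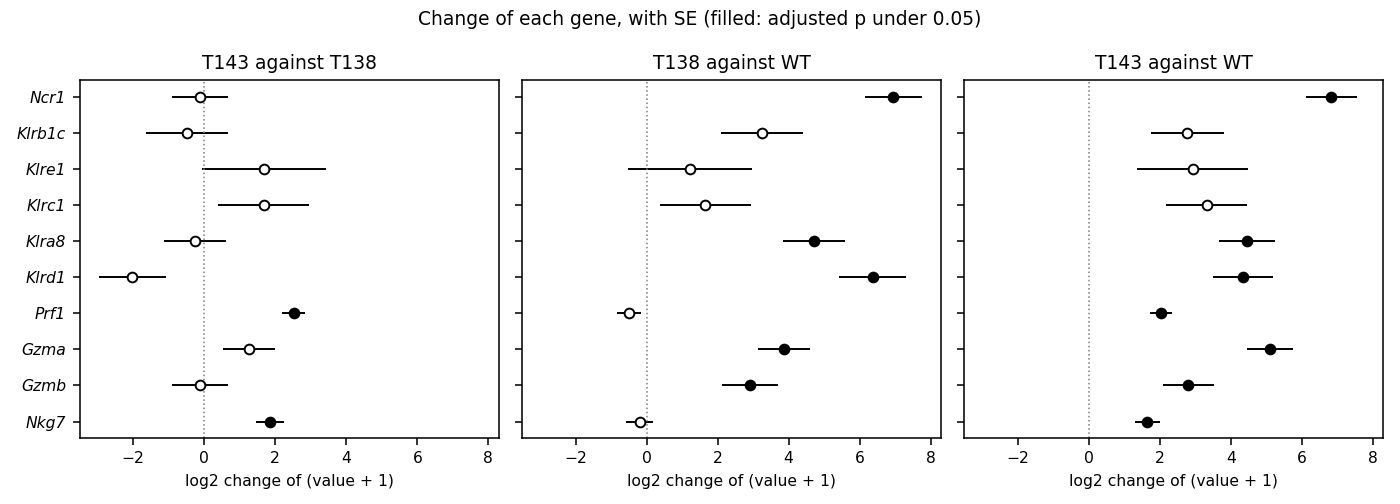
Log2 change of (value + 1) with its SE (horizontal axes) for the 10 genes, in panels for T143 against T138, T138 against WT and T143 against WT; filled points have an adjusted p under 0.05. There are 2, 5 and 7 filled points, each on the higher side.

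Effector signal per receptor signal was lower in T138 than in T143, a gap that depends on Klrd1. The 6 receptor members summed to 203, 547 and 344 normalised reads in T143, against 636 and 687 in T138 and 7.58, 23.4 and 25.8 in the WT libraries. Klrd1 alone gave 396 and 343 of the T138 sums, against 65.7, 101.8 and 108 in T143. The 4 effectors summed to 1739, 1891 and 4036 in T143, against 1074 and 1108 in T138 and 552, 284 and 636 in WT. Effector per receptor signal was thus 8.57, 3.46 and 11.7 in T143, against 1.69 and 1.61 in T138, and 72.8, 12.1 and 24.6 in the WT libraries. The 3 groups did not overlap in this ratio, T138 being the lowest and WT the highest. T143 and WT nearly met, at 11.7 and 12.1, and the WT ratios rest on 11 to 34 receptor reads. With Klrd1 left out of the receptor sums, the ratios of T143 and T138 overlap, and no test was made.

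Set against Ncr1 in the same library, the genes divided into those with like and those with unlike ratios in the lines. Klrb1c stood at 0.237, 0.200 and 0.237 per Ncr1 value in T143 and at 0.230 and 0.366 in T138, which overlap. Klrd1 stood at 0.868, 0.364 and 0.763 in T143, below 2.65 and 2.09 in T138. For the granule genes Prf1, Gzma and Nkg7, but not Gzmb, T143 was the higher line. Prf1 stood at 5.76, 1.74 and 2.90 in T143, against 0.428 and 0.557 in T138. Gzma stood at 2.61, 1.70 and 1.49 per Ncr1 value in T143, against 0.862 and 0.603 in T138. Nkg7 stood at 10.3, 2.16 and 7.75 in T143, against 1.45 and 1.39 in T138. Gzmb spread from 1.16 to 16.5 in T143, on both sides of 4.44 and 4.20 in T138. Genes scaled to 1 divisor share its error, and 3 libraries against 2 are too few for an exact permutation test to pass, so no test is given.

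**Figure D3:**
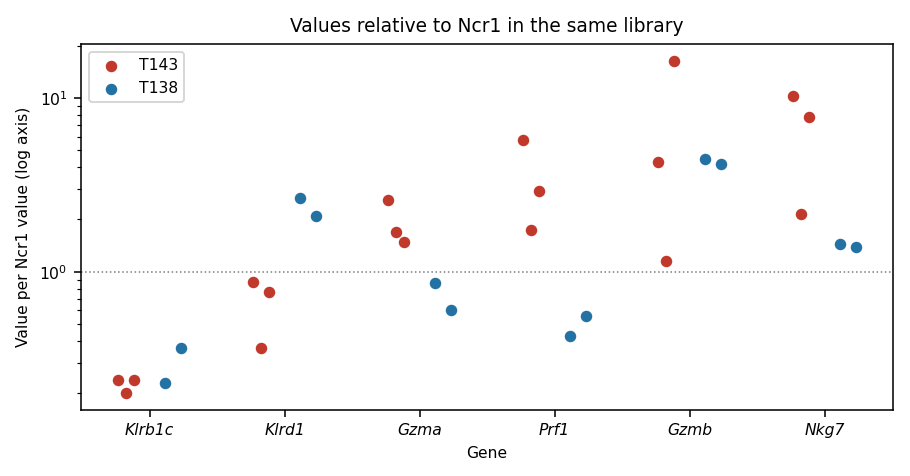
Value of 6 genes divided by the Ncr1 value of the same library (vertical axis, log scale), with 1 point per library of T143 and T138; the dotted line marks 1. Klrd1 lies lower in T143 than in T138, Prf1, Gzma and Nkg7 lie higher, and Klrb1c and Gzmb overlap.

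Of 21 other Klr genes, the members' relatives in the lectin-like family, 19 were tested, and 12 were called higher in T143 than in WT, 8 higher in T138 than in WT and 0 lower in either. Here and in the lists that follow, counts of 0 also held in edgeR, DESeq2 and limma-voom and at an unadjusted p under 0.05, except for Tox and Il12rb2, named below. Beside each list stand the shares of all tested genes, 10.8% higher and 10.2% lower for T143 against T138. These shares were 5.74% and 5.30% for T138 against WT, and 11.7% and 12.1% for T143 against WT. Between the lines 2 of these Klr genes were called higher in T143 and 1 lower. The median log2 change was 2.78 for T143 against WT and 3.45 for T138 against WT, and 2.43 and 4.06 when genes at 0 in a group entered at their bounds. Klrk1, the activating receptor NKG2D, had 71.6, 267 and 132 normalised reads in T143, against 247 and 149.9 in T138, and 6.89, 8.52 and 1.52 in the WT libraries. The line libraries all lay above WT and overlapped each other (T143 against WT 4.58 ± 0.70, limma adjusted p = 0.00141; T138 against WT 5.07 ± 0.78, adjusted p = 0.00271).

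Klri2, the activating partner of Klre1, had 41.8, 127 and 84.2 normalised reads in T143, against 274 and 215 in T138, and 0, 13.8 and 0 in WT. It rose over WT in T143 (4.98 ± 1.02, limma adjusted p = 0.00609) and in T138 (6.63 ± 1.14, adjusted p = 0.0048). Klri1, the inhibitory partner, had 5.97, 24.2 and 26.0 in T143, against 19.7 and 48.3 in T138, and none in WT, at least 7.45-fold higher in T143 and at least 13.5-fold higher in T138. Without T138 replicate 2 that last bound was 7.83-fold and the T138 call was lost (adjusted p = 0.0696). Klrc2 and Klrc3, the other NKG2 chains that pair with CD94, stayed low. Klrc2 had 1.99, 11.5 and 8.66 in T143 and none in T138 or WT, and Klrc3 had 1.99, 14 and 6.19 in T143, against 12.8 and 25.4 in T138 and none in WT.

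Klrg1, an inhibitory receptor that binds cadherins and is also made by activated Treg cells, was by far the most abundant Klr transcript. It had 977, 1065 and 1895 normalised reads in T143, against 8456 and 8555 in T138 and 313, 406 and 566 in the WT libraries. The groups did not overlap, and the change was -2.76 ± 0.30 for T143 against T138 (limma, adjusted p = 0.00031). The limit given for Klra8 holds for every Klra gene counted or named here: in NOD mice the reads are uncertain for the single Ly49 gene. Klra2, a Ly49 gene, had 7.96, 70.0 and 80.5 in T143 and none in T138 or WT, at least 19.2-fold higher in T143 than in T138. That call was lost without T138 replicate 2 (adjusted p = 0.0528).

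Over the 36 Klr rows in the table, 19 had reads in all 5 line libraries and 5 had reads in all WT libraries. In T143 6 rows had reads in every library and none in T138 (Klra2, Klra6, Klra9, Klra10, Klra19 and Klrc2), and 0 rows had the reverse pattern. Klra6 and Klra19 rest on 1 read per T143 library (1.99, 1.27 and 1.24). That is below the limit of 3 reads in T138 (2.95 and 2.54). Klra10 (3.98, 6.36 and 3.71) lay little above it. The share of all genes with these patterns was not counted, so they are not read as a line difference. Klra6 and Klra19 are identical in every library, as are Klra8 and Klra21, and Klra23 and Klra13-ps. Leaving out 1 library moved the Klr counts most without T143 replicate 2 (7 higher in T143 than in WT) and without T138 replicate 2 (5 higher in T138 than in WT, 0 higher in T143 than in T138). Between the lines, 1 was higher without T143 replicate 2, T143 replicate 3 or T138 replicate 1. Those called in all 8 such fits were Klra2, Klra4, Klra17, Klri1, Klri2, Klrk1 and Klrg1 for T143 against WT and Klra4, Klra17, Klri2, Klrk1 and Klrg1 for T138 against WT.

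**Figure D4:**
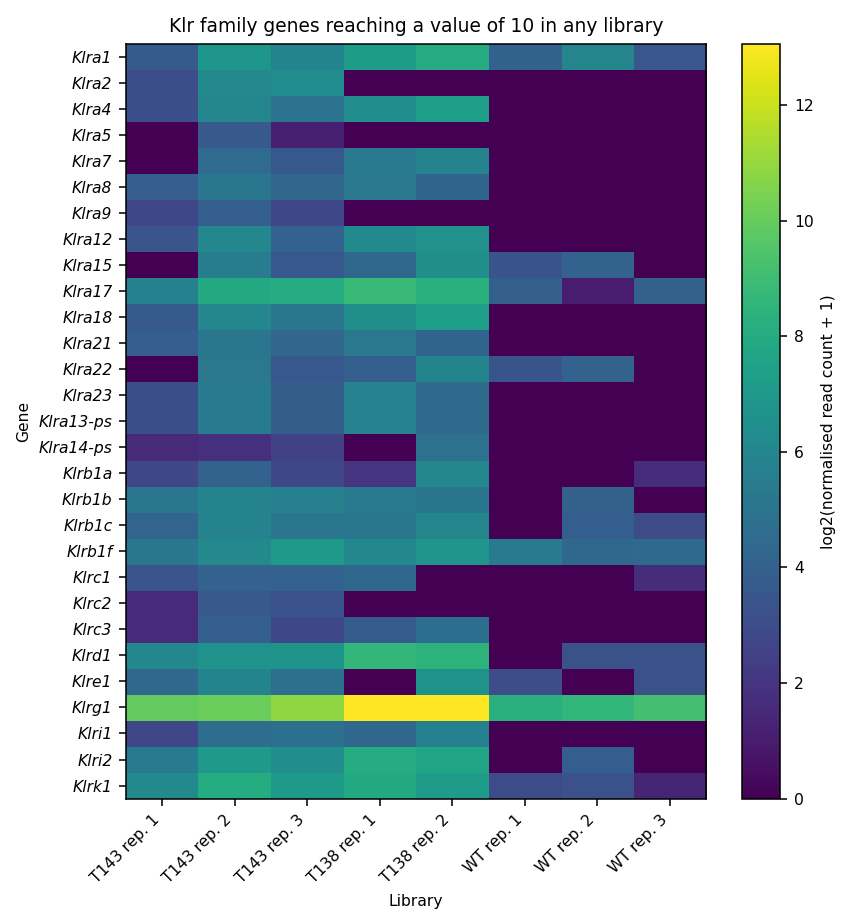
Log2(normalised read count + 1) of Klr genes that reach 10 in any library (rows) in each of the 8 libraries (columns: T143, T138, WT), with lighter colours for higher values. Klrg1 is the brightest row, most rows are dark in WT, and Klra2 shows signal in T143 alone.

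Tyrobp and Fcer1g, adaptors that carry the signal of activating NK receptors, were high in both lines. Tyrobp (DAP12), the partner of activating Ly49 receptors, had 895.5, 2473 and 4415 normalised reads in T143, against 1771 and 1074 in T138, and 11.7, 49.0 and 34.2 in WT. It rose over WT in T143 (6.25 ± 0.62, limma adjusted p = 0.00028) and in T138 (5.61 ± 0.70, adjusted p = 0.00142). Fcer1g, which with Cd247 serves NKp46, had 366, 1373 and 2543 in T143, against 858 and 651 in T138, and 42.0, 2.13 and 42.6 in WT. It rose over WT in T143 (5.91 ± 1.01, adjusted p = 0.00334) and in T138 (5.38 ± 1.13, adjusted p = 0.0166), the second call being lost without T138 replicate 1 (0.0769) or T138 replicate 2 (0.0692). Tyrobp and Fcer1g are also transcribed in myeloid cells, and most neutrophil, monocyte and dendritic cell markers were called higher in each line than in WT. Between the lines neither adaptor was called (Tyrobp 0.63 ± 0.70, limma adjusted p = 0.552, Fcer1g 0.54 ± 1.13, adjusted p = 0.765). There, 7 of 9 neutrophil markers were higher in T143 and 2 of 6 dendritic cell markers lower. Which cells gave these transcripts was not tested. Cd247, shared with the T cell receptor, averaged 9042 ± 2544 in T143, against 4950 ± 277 in T138 and 5731 ± 1174 in WT.

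In all, 2 of 6 tested adaptors were higher in T143 than in T138 and 0 lower, 2 were higher and 1 lower in T138 than in WT, and 3 were higher and 0 lower in T143 than in the WT libraries. The calls that held whichever library was left out were those of Tyrobp in both lines and of Fcer1g in T143, each against WT. The 2 higher between the lines became 0 without T143 replicate 1, T138 replicate 1 or T138 replicate 2, and 1 without T143 replicate 3 or WT replicate 3. Of 11 tested ligand genes, 1 was higher and 2 lower in T143 than in T138, 2 higher and 1 lower in T138 than in WT, and 1 of each in T143 against WT. H2-T23 (Qa-1), whose product is read by CD94 with NKG2A, averaged 862 ± 168 normalised reads in T143, against 1033 ± 64.1 in T138 and 1022 ± 260 in WT, and was called in no comparison. Clec2i, a ligand of NKR-P1 receptors, fell in T138 against WT (-1.38 ± 0.20, limma adjusted p = 0.00192) whichever library was left out. Besides Clec2i, the ligand calls that held in this way were H60b, lower, and Cadm1, higher, both in T143 against WT. The 2 ligand genes higher in T138 than in WT became 0 without T138 replicate 1, WT replicate 2 or WT replicate 3, and 1 without T143 replicate 2, T138 replicate 2 or WT replicate 1. Of those called between the lines, the 2 lower became 0 without T138 replicate 1 or T138 replicate 2, and 1 without T143 replicate 2, T143 replicate 3 or WT replicate 3. The 1 higher became 0 without T138 replicate 2.

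Of 10 other NK cell receptors, 1 was higher and 1 lower in T143 than in T138, 3 were higher and 2 lower in T138 than in WT, and likewise 3 and 2 in T143 against WT. Cd160, a receptor of NK and T cells, had 71.6, 40.7 and 205 normalised reads in T143, against 0.98 and 6.77 in T138, and 197, 166 and 109 in WT. It was thus low in T138 alone, with changes of 4.45 ± 0.82 for T143 against T138 (limma, adjusted p = 0.00426) and -5.29 ± 0.82 for T138 against WT (adjusted p = 0.0027). Both held whichever library was left out. Fcgr3, an Fc receptor that myeloid cells also make, rose in T143 over WT by 7.19 ± 0.98 (adjusted p = 0.000808). Its call and that of Cd7, also higher in T143 than in WT, held as well, and no other call of this list did. The 3 higher in T138 than in WT became 0 without T138 replicate 1, and 1 without T138 replicate 2, WT replicate 1 or WT replicate 3. The 2 lower in T143 than in WT became 0 without WT replicate 3 and 1 without WT replicate 1, and the 2 lower in T138 than in WT became 1 without T138 replicate 2. The 1 lower between the lines became 0 without T143 replicate 2, T138 replicate 1 or T138 replicate 2.

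Granule genes beyond the members were called in both directions, as were genes over the whole set tested. Of 15 tested proteases, inhibitors and release factors, 3 were higher and 1 lower in T143 than in T138, 2 higher and 3 lower in T138 than in WT, and 5 higher and 1 lower in T143 than in the WT libraries. Their median log2 changes of 0.03, 0.03 and 0.13 lay near those of all tested genes (0.15, -0.06 and 0.05). Gzmk, granzyme K, had 61.7, 63.6 and 316 normalised reads in T143, none in T138, and 0, 9.58 and 4.56 in WT. It was at least 53.5-fold higher in T143 than in T138 (limma, adjusted p = 0.00352), a bound that was 22.8-fold without T143 replicate 3, and rose in T143 over WT (4.8 ± 1.07, adjusted p = 0.00942).

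Ctsc, the protease that activates granzymes, averaged 2499.6 ± 621 normalised reads in T143, against 1263 ± 179 in T138 and 849 ± 210.2 in WT. Its rise in T143 over WT was 1.56 ± 0.23 (limma, adjusted p = 0.00109). Rab27a, which docks granules, rose over WT in T143 (0.80 ± 0.18, adjusted p = 0.0102) and in T138 (1.23 ± 0.20, adjusted p = 0.00392). Unc13d, which primes them, fell in T143 against WT (-0.51 ± 0.11, adjusted p = 0.00947). The Gzmk calls and these 4 held whichever library was left out, and no other call of this list did. Without T143 replicate 3 the counts were 1 higher and 3 lower for T143 against T138 and 3 and 3 for T143 against WT. The 3 higher between the lines were also 1 without T138 replicate 1 or T138 replicate 2, and the 3 lower in T138 than in WT were 1 without T138 replicate 1, T138 replicate 2 or WT replicate 3.

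Other arms of killing went in differing directions. Fasl, the ligand of the death receptor Fas, had 141, 86.5 and 109 normalised reads in T143, against 12.8 and 7.62 in T138, and 55.8, 67.1 and 57.0 in WT. It was higher in T143 than in T138 (3.35 ± 0.55, limma adjusted p = 0.0025). Tnfsf10 (TRAIL) averaged 942 ± 36.8 in T143, against 2178 ± 126 in T138 and 1465 ± 169 in WT, and was lower in T143 than in T138 (-1.21 ± 0.15, adjusted p = 0.000653) and than in WT (-0.63 ± 0.14, adjusted p = 0.0077). Ccl5, a chemokine of killer cells, rose in T143 over WT (2.21 ± 0.44, adjusted p = 0.00498), and Tnf fell (-1.28 ± 0.29, adjusted p = 0.00942). These calls held whichever library was left out.

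Of the 9 genes of that list, 1 was higher and 1 lower in T143 than in T138, 4 higher and 2 lower in T138 than in WT, and 1 higher and 2 lower in T143 than in the WT libraries. The 4 higher calls of T138 against WT became 0 without T138 replicate 1 or T138 replicate 2, 1 without T143 replicate 2 or WT replicate 1, and 2 without WT replicate 2 or WT replicate 3. Without both libraries of doubtful source name they were 0. The 2 lower calls of T138 against WT became 0 without T138 replicate 2 or WT replicate 3, and 1 without WT replicate 1. Ifng, interferon gamma, was called in no comparison, with 74.9 ± 32.7 in T143, against 28.1 ± 20.2 in T138 and 91.4 ± 56.3 in WT.

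Of 9 tested transcription factors of killer cells, 3 were higher and 1 lower in T143 than in T138, 1 of each in T138 against WT, and 2 higher and 0 lower in T143 than in WT, where Tox was lower at an unadjusted p under 0.05. Eomes, a T-box factor of NK and memory CD8 T cells, had 283, 308 and 584 normalised reads in T143, against 57.1 and 104 in T138, and 358, 214 and 197 in WT. It was higher in T143 than in T138 (2.25 ± 0.43, limma adjusted p = 0.00505) but not than in WT (0.58 ± 0.38, adjusted p = 0.303). Id2, needed for the development of NK cells, had 3455, 2910 and 3129 in T143, against 1198 and 946 in T138, and 597, 552 and 604 in the WT libraries. The groups did not overlap, and Id2 was higher in T143 than in T138 (1.57 ± 0.16, adjusted p = 0.000247). Tbx21 (T-bet) was called in no comparison, with 244 ± 64.3 in T143, against 150.0 ± 4.99 in T138 and 248 ± 39.4 in WT. The calls that held whichever library was left out were those of Eomes and Id2 between the lines and of Id2 and Zeb2 in T143 against WT. In T138 against WT none did: the 1 higher became 0 without T138 replicate 1, and the 1 lower became 0 without any single T138 or WT library. The 1 lower between the lines became 0 without T143 replicate 2, T138 replicate 1 or T138 replicate 2, and the 0 lower in T143 than in WT became 2 without T143 replicate 3.

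Several cytokine receptors that NK cells use were lower in T143. Of 8 tested, 3 were lower in T143 than in T138 and 5 lower than in WT, with 0 higher by limma in either. At an unadjusted p under 0.05, Il12rb2 was higher in both, and DESeq2 called 1 gene higher in T143 than in WT. Il15ra averaged 130.0 ± 34.2 normalised reads in T143, against 482 ± 58.9 in T138 and 350.0 ± 57.5 in WT, and fell against T138 (-1.91 ± 0.31, limma adjusted p = 0.00215) and against WT (-1.45 ± 0.27, adjusted p = 0.00413). Il12rb1 fell likewise (-1.71 ± 0.25, adjusted p = 0.00135, and -1.21 ± 0.22, adjusted p = 0.00323). Il2rb, the chain shared by the receptors for interleukins that sustain both Treg and NK cells, fell against WT in T143 (-1.14 ± 0.17, adjusted p = 0.00136) and in T138 (-1.04 ± 0.19, adjusted p = 0.00707), the second not without T138 replicate 2 (0.0911). Il18r1 and Il21r completed the 5 genes lower in T143 than in WT, and all 5 calls held whichever library was left out. In T138 against WT, 1 was higher, or 0 without T138 replicate 1 or T138 replicate 2, and 2 were lower, or 1 without T138 replicate 2.

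Most homing and adhesion genes were called higher in T143 than in WT. Of 7 tested, 5 were higher in T143 against WT and 3 in T138 against WT, with 0 lower in either comparison, and 2 were lower in T143 than in T138. Cx3cr1, a fractalkine receptor of mature NK cells and of monocytes, rose in T143 over WT by 5.67 ± 0.87 (limma, adjusted p = 0.00142). Itga2, whose product CD49b marks NK cells, had 125, 154 and 171 normalised reads in T143, against 435 and 312 in T138, and 32.4, 55.4 and 51.7 in WT, and rose over WT in T143 (1.70 ± 0.36, adjusted p = 0.00725) and in T138 (3.00 ± 0.40, adjusted p = 0.00138). The T143 calls of Cx3cr1 and Itga2 and the T138 call of Itga2 held whichever library was left out. The count of 5 fell to 3 without T143 replicate 2, T143 replicate 3 or WT replicate 1, and that of 3 to 1 without T138 replicate 2. The 2 lower between the lines became 0 without T143 replicate 1, T143 replicate 2, T138 replicate 1 or T138 replicate 2, and 1 without T143 replicate 3 or WT replicate 3.

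The sorted fractions also differed in transcripts of other cells. Markers of neutrophils summed to 90620 to 554500 normalised reads in T143, against 4155 and 23670 in T138, and 35.1 to 771 in WT. Of 9 markers, 7 were higher in T143 than in T138 (2 without T138 replicate 2), 8 higher in T143 than in WT and 7 higher in T138 than in WT. Monocyte and macrophage markers summed to 9198 to 33430 in T143, against 2632 and 4529 in T138, and 296 to 391 in WT (7 of 7 higher in T143 and 4 of 7 in T138, each against WT; 1 in T138 without T138 replicate 1 or T138 replicate 2). Dendritic cell markers summed to 384 to 1349 in T143, against 5271 and 5954 in T138, and 26.2 to 186 in WT. MHC class II genes summed to 7079 to 28460 in T143, against 74820 and 99920 in T138, and 1339 to 2008 in WT, with 7 of 7 higher in each line than in WT.

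T cell receptor complex genes summed to 22990 to 46390 in T143, against 33920 and 35120 in T138, and 31960 to 43640 in WT. Treg and CD4 T cell genes summed to 24460 to 28920 in T143, against 92290 and 93630 in T138, and 82090 to 102800 in WT. Foxp3 itself was 3920 to 8694 in T143, against 41161 and 41854 in T138, and 29773 to 36362 in WT. CD8 T cell markers summed to 131 to 214 in T143, against 264 and 316 in T138, and 87.3 to 189 in WT. B cell markers summed to 45.8 to 121 in T143, against 44.9 and 217.5 in T138, and 150.2 to 512 in WT. The B cell factor Pax5 was at 0 in every library but WT replicate 1 (8.95). The 2 gamma delta T cell markers in the table, of 5 listed, summed to 432 to 556 in T143, against 91.4 and 97.4 in T138, and 20.5 to 103 in WT, nearly all of it Sox13 in T143. Zbtb16, a factor of NKT cells, was at most 28.0 in any library.

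Mast cell and basophil markers summed to 107.5 to 465 in T143, against 0 and 61.0 in T138, and 0.69 to 18.1 in WT. Erythroid markers summed to 2510 to 14010 in T143, against 1175 and 2312 in T138, and 197 to 538 in WT. NK cell markers, 4 of which are members, summed with Eomes to 410 to 805 in T143, against 277 and 448 in T138, and 212 to 366 in the WT libraries. Nearly all of the WT sums was Eomes (358 of 366, 214 of 229 and 197 of 212). Eomes gave 57.1 and 104 of the T138 sums, and 283, 308 and 584 in T143. Gzmb was highest in T143 replicate 3, which also had the highest neutrophil sum. In T138, however, Gzmb was 664 and 689 beside neutrophil sums of 23670 and 4155. In T143 replicates 1 and 2 it was 324 and 323 beside 90620 and 153200. Ncr1, Klrb1c, Klre1, Klrc1, Klra8, Prf1 and Gzma were highest among the T143 libraries in replicate 2, which had the highest dendritic cell, MHC class II and erythroid sums. In T138 the dendritic cell and MHC class II sums were higher than in T143 and the erythroid sums lower. There Prf1 and Gzma were lower than in T143, while the receptors just named overlapped between the lines. The part of these other cells in the members' levels was not tested.

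**Figure D5:**
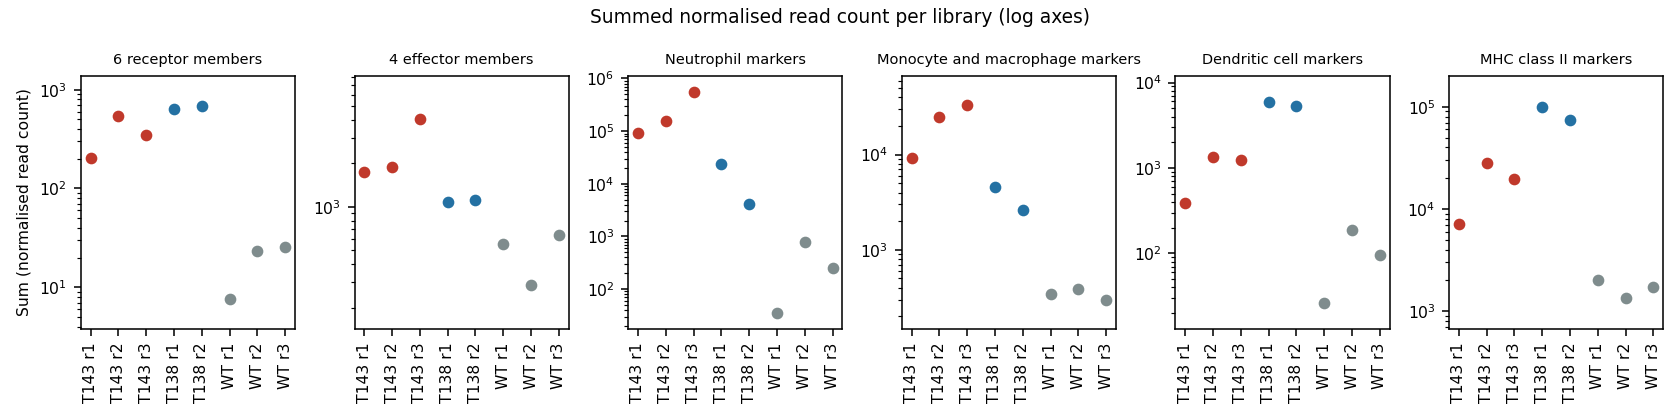
Summed normalised read count per library (vertical axes, log scale) of the 6 receptor members, the 4 effector members and 4 marker lists of other cell types, coloured by group. WT is the lowest group in every panel; neutrophil markers are highest in T143, dendritic cell and MHC class II markers in T138.

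Genes with the nearest profiles over the 8 libraries were sought for 3 members among 15547 genes, by the root mean square difference of centred log2 values. For Ncr1 these were Sirpb1b (0.66), Pilrb1 (0.71), C5ar2 (0.72), Clec9a (0.72) and Nlrp3 (0.73), all nearer than its closest fellow member Klra8 (1.21). Sirpb1b had 39.8, 95.5 and 149 normalised reads in T143, against 45.3 and 88.1 in T138, and none in WT. For Gzmb they were S100a6 (0.42), S100a11 (0.44), Sytl3 (0.50), Fbn2 (0.53) and M1ap (0.58), against 1.33 for Klra8. S100a6, a calcium-binding protein gene, had 1737, 2316 and 9761 in T143, against 5923 and 4850 in T138, and 709, 628 and 1075 in WT, with T143 replicate 3 highest as in Gzmb. For Gzma they were Cx3cr1 (0.68), Ifitm3 (0.71), Nudt12 (0.76), Fcgrt (0.77) and Clec12a (0.77), against 0.84 for Klra8. Genes that stand at 0 in WT and above it in both lines resemble each other on this measure by that step alone.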

How the data were processed

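Messenger RNA of sorted CD4-positive, Foxp3-positive T cells was read with a stranded poly(A) kit, per the labels' protocols. The deposited values are a signal: read counts per gene that the authors divided by 1 factor per library, which the values themselves show, since each is a multiple of its library's smallest step (100.0% came out whole, to a tolerance of 0.01). Per the submitters' processing notes, CASAVA 1.8.2, STAR 2.5.2b, HOMER 4.8, edgeR and the build mm10 were used, in no stated order or role. Those notes leave out how strand and reads that match several genes were handled.

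Values were tested as log2(value + 1) with limma 3.58.1 (R 4.3.3), with a mean-variance trend and robust empirical Bayes moderation, all 8 libraries fitted together by group. A gene needed a value of at least 1 in 2 libraries, which left 15547 of 24453. Calls are two-sided at a Benjamini-Hochberg adjusted p under 0.05 over all tested genes, and fold changes on this scale understate those of low genes. Non-overlap means that every library of 1 group lies above every library of the other. Intervals and floors cover counting error only. Levels per kb used GENCODE transcript lengths of GRCm38, found for 23878 genes. The procedure was run on simulated data in which only well-expressed genes were changed, and only in T143. That run did not cover changes of low genes, or true changes of T138 against WT.

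Alternatives were edgeR 4.0.16, DESeq2 1.42.0 and limma-voom on the recovered reads, other pseudocounts, filters and scalings, a replicate block, fits of 2 groups only, and leaving out libraries. The genes and lists were chosen with earlier results of these data known. Named were all members, up to 3 genes per list and comparison with the smallest p, partners, adaptors and ligands of members, and for Ncr1, Gzmb and Gzma the 5 genes of nearest profile. No columns of other samples were present. Klrd1 has no entry in the promoter table.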

Additional observations from a re-analysis of the deposited data

How the results depend on the processing

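Of 600 recomputed changes of the 10 members over 20 alternatives, 552 kept their direction and their side of the threshold, 15 no longer passed, 12 newly passed and 21 changed direction, none of which passed in either. T143 against T138 turned for Ncr1 (0.07 in edgeR and in DESeq2, 0.01 in limma-voom, 0.34 without both libraries of doubtful source name), Klre1 (-0.53 in edgeR, -0.54 in DESeq2), Klra8 (0.01 without both) and Gzmb (0.58, 0.57 and 0.36 in edgeR, DESeq2 and without both). Nkg7 in T138 against WT turned to 0.02 with a replicate block. Leaving out 1 library gave ranges across 0 for T143 against T138 in Ncr1 (-0.60 to 0.34), Klre1 (-1.65 to 5.03), Klrc1 (-0.54 to 3.89), Klra8 (-0.74 to 0.21) and Gzmb (-1.06 to 0.36), and for T138 against WT in Klre1 (-2.11 to 4.57), Klrc1 (-0.57 to 3.87) and Nkg7 (-0.61 to 0.03). Members called lower in T143 than in T138 numbered 1, Klrd1, in DESeq2, limma-voom, with a pseudocount of 5, with only these 2 groups and without both. Leaving out 1 library gave 0 to 1 lower and 1 to 2 higher for T143 against T138, 3 to 5 higher for T138 against WT and 7 to 8 for T143 against WT. Genes called ran from 1345 to 3674, 757 to 1837 and 2460 to 3575 in that order. Of 106 calls of listed genes, 50 held whichever library was left out and 56 did not. The cause of these changes was not tested.

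Same-numbered libraries did not deviate together (correlation -0.062 to 0.055 over 7 pairs), so the numbers were not taken to pair them; with the replicate block 3109, 1804 and 3940 genes were called. Median centring moved all genes to 1272 higher and 1713 lower for T143 against T138 (1681 and 1591 before) and to 1403 and 2157 for T143 against WT (1818 and 1880 before), and quantile normalization put the median change of all genes at 0.01 and -0.08, against 0.15 and 0.05. Low receptors rest on few reads in WT, which limits their fold changes.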
